A study of Mus musculus with 2 samples.

Results

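Keratins are the intermediate filament proteins of epithelial cells. A type I keratin pairs with a type II keratin to build each filament, and the pair in use changes with the state of the cell. Krt5 pairs with Krt14 (and Krt15) in basal keratinocytes, Krt1 with Krt10 in suprabasal cells that have begun to differentiate, and Krt8 with Krt18 in simple epithelia, while Krt17 is known from developing hair follicles and other skin appendages. The keratin genes were taken as all genes whose symbol is Krt followed by a number and at most 1 letter, which gave 53 of the 32285 genes in the files. They comprised 28 type I and 25 type II genes. On mm10, 27 of them lay on chromosome 11 between 99232761 and 100269871 (all type I), and 26 on chromosome 15 between 101347444 and 102032027 (the type II genes and Krt18). All 53 are annotated as protein coding. At least 1 UMI (unique molecular identifier, the count of captured RNA molecules) was found for 44 of the 53, and for 9 there was none in either library.

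The study set E14.5 mouse flank skin of a Wntless mutant against wildtype littermates. The mutant came from K14Cre mice, in which the promoter of the basal keratin K14 drives Cre recombinase, crossed to Wntless fl/fl mice. Wntless (Wls) is the carrier that Wnt ligands need for secretion, and hair placodes, the thickenings from which follicles grow, depend on Wnt signals. There was 1 library per genotype, each from 2 to 3 pooled embryos, made with the 10x 3' kit version 3.1 after dissociation in trypsin and sorting. Whether the wildtype littermates carried Cre or a floxed allele is not given in the sources used here. With 1 library per genotype there is no test between genotypes: the intervals below are 95% intervals for counting error, and no p-value was computed.

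Epidermal cells were those outside the authors' lists of dermal cells with UMIs of at least 3 of the 6 genes Trp63, Epcam, Cdh1, Perp, Sfn and Dsp. This gave 166 cells with 4298172 UMIs in the mutant library and 510 cells with 9219003 UMIs in the wildtype library, with a median of 23637 UMIs per mutant cell and 15557.5 per wildtype cell. Cells with UMIs of at least 3 of 8 placode genes (Dkk4, Shh, Fgf20, Edar, Lhx2, Bmp2, Wnt10b and Ltb) numbered 2 in the mutant library and 226 in the wildtype library, which left 164 mutant and 284 wildtype epidermal cells without placode genes. Wls, the targeted gene, stood at 7.81 CPM (UMIs per 1000000 UMIs) in mutant cells without placode genes and 154.8 CPM in the wildtype cells, a log2 ratio of -4.31 (-4.86 to -3.81). Keratins were not used to choose the cells, and the choice coincided with them: keratins took 3362 CPM in mutant cells and 2623 CPM in wildtype cells with exactly 3 of the 6 epidermal genes, just inside the rule, against 93.6 and 397.6 CPM in those with exactly 2, just outside. The 2 libraries shared 19 barcodes, and none of these was epidermal in both.

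Promoter sequences are shown for Krt8, Krt18, Krt5 and Krt10. In summed UMIs, Krt8 and Krt18 were higher in wildtype cells with placode genes than without, and Krt5 and Krt10 were lower. The 150 bases before the annotated start are given 5′ to 3′ on the gene's strand (RefSeq, GRCm38.p6). In the GENCODE positions Krt8 begins at 102004482 and Krt18 at 102028180. Both positions lie within the windows shown, so part of each window falls inside the GENCODE gene. Capitals mark a TATA box (TATAAA) or an AP-2 motif (GCCNNNGGC).
Krt8, chr15:102004343-102004492, minus strand: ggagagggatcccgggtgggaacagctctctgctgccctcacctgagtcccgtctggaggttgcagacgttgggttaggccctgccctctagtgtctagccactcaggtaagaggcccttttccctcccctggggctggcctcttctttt
Krt18, chr15:102028066-102028215, plus strand: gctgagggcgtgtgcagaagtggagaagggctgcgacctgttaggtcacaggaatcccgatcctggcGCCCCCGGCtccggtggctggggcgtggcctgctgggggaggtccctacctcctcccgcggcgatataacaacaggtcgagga
Krt5, chr15:101712906-101713055, minus strand: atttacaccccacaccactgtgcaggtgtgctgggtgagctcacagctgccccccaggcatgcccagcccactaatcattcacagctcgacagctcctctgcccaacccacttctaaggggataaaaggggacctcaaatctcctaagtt
Krt10, chr11:99389365-99389514, minus strand: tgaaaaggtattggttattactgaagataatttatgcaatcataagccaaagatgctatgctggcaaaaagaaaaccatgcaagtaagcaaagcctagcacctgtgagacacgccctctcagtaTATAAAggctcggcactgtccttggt
In the window of Krt10 a TATA box began 26 bases before the start (position -26). In that of Krt18 an AP-2 motif began at position -83. The windows of Krt8 and Krt5 held none of the 4 motifs searched. These were the TATA box TATAAA, the TCF/LEF core CTTTGA, the AP-1 motif TGANTCA and the AP-2 motif GCCNNNGGC, each on both strands of the 250 bases before a start. Of the other keratins lower in cells with placode genes, Krt7 also held AP-2 motifs, and Krt77 held none of the 4 motifs. The AP-2 motif was thus not limited to keratins higher in those cells. The Krt7 window, from 101412253, lay inside the GENCODE gene, which begins at 101411043. Promoters were available for 36 of the keratin genes, 37 in all, and not for Krt17, Krt15, Krt16 or Krt1. A TATA box was found in 17 of the 37 (45.9%), against 12.4% of 32851 promoters of all genes. CTTTGA was found in 9 (24.3%, against 13.8%), the AP-2 motif in 5 (13.5%, against 13.7%) and the AP-1 motif in 2 (5.41%, against 6.75%). A match describes letters in these windows and no binding was measured.

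Wildtype epidermal cells with placode genes had a different set of keratins from those without. In summed UMIs, Krt17, Krt16, Krt18 and Krt8 were higher in them, and Krt15, Krt5, Krt10, Krt1, Krt77 and Krt7 were lower. Krt14 differed least. Summed over all members, keratins took 0.259% of the UMIs of cells with placode genes (0.253 to 0.264%) and 0.405% of those of cells without (0.400 to 0.411%), a log2 ratio of -0.65 (-0.68 to -0.61). Of 11 keratins with 20 or more UMIs over both sets, 4 were at least 1.5-fold higher in cells with placode genes and 6 at least 1.5-fold lower, leaving 1 in between. Their median log2 ratio was -1.24. Among 11119 genes measured in the same cells, 13.1% were as much higher and 10.6% as much lower, with a median of 0.03.

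Krt17, the keratin of developing appendages, reached 898.8 CPM in cells with placode genes and 292.7 CPM in those without, a log2 ratio of 1.62 (1.53 to 1.71). It was found in 223 of 226 cells with placode genes, and at 5000 UMIs per cell in 92.9% of them against 43.7% of cells without. Nearly every cell with placode genes thus contained Krt17. Krt16, a type I keratin known from injured and appendage epithelium, had 10.9 CPM in cells with placode genes and 3.66 CPM in those without (log2 ratio 1.57, 0.77 to 2.42). Krt14, Krt16 and Krt17 are close paralogs, and reads of the 3' tag could have been split between them.

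The simple epithelial pair was low but also higher in cells with placode genes. Krt18 had 74 UMIs in 50 of 226 such cells (19.7 CPM) and 23 UMIs in 18 of 284 cells without (4.21 CPM), a log2 ratio of 2.22 (1.53 to 2.97). Krt8 had 24 UMIs in 17 cells and 3 UMIs in 3 cells (6.38 and 0.55 CPM), a log2 ratio of 3.54 (1.82 to 5.91). The 2 genes had a UMI in the same cell in only 6 of the 226. Periderm, the outermost embryonic layer, and Merkel cells, the touch cells of the skin, also use these keratins. Among periderm genes, Grhl3 had 1.33 CPM in cells with placode genes and 8.24 CPM in cells without, and Cldn6 14.9 and 5.86 CPM, while Gabrp was at 0 in both and Cldn23 had 1 UMI in cells with placode genes. Of the Merkel cell genes, Atoh1 had no UMI in cells with placode genes and 1 in cells without, Isl1 had 1.33 and 1.28 CPM, and Sox2 had 10.9 and 2.02 CPM. Sox2 was also among the leading genes of cluster 5, which held 1481 dermal list cells. The part of periderm and Merkel cells in the Krt8 and Krt18 result was not tested.

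The basal keratins differed by unequal amounts. Krt15, which marks basal cells, was at 137.2 CPM in cells with placode genes and 1018 CPM in cells without, a log2 ratio of -2.89 (-3.02 to -2.76). Krt5 was at 271 CPM and 882.8 CPM (log2 ratio -1.70, -1.80 to -1.61). Its partner Krt14 was at 1179 CPM and 1547 CPM (-0.39, -0.45 to -0.34). Krt14 was thus within 1.5-fold between these cells where Krt5 and Krt15 were not. All type I keratins together outnumbered type II UMIs by 8.03 to 1 (7.53 to 8.56) in cells with placode genes and by 3.06 to 1 (2.96 to 3.15) in cells without. Krt14 and Krt17 together supplied most of the type I UMIs of cells with placode genes, 45.6% and 34.8% of all their keratin UMIs.

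Suprabasal keratins were lower in sum in cells with placode genes. Krt1 had 5.58 CPM there and 101.7 CPM in cells without (log2 ratio -4.19, -4.89 to -3.56), and Krt10 had 51.3 and 183.9 CPM (-1.84, -2.07 to -1.62). The median cell did not have less Krt10, at 46.5 CPM with placode genes and 40.1 CPM without. In cells without, 5 cells held 47.9% of the Krt10 UMIs and 5 cells 55.3% of the Krt1 UMIs. Krt77, a type II epidermal keratin, had 1 UMI and 40 UMIs (log2 ratio -4.78, -10.12 to -2.22), and the simple epithelial keratin Krt7 had 7 and 24 (-1.24, -2.70 to 0.02). Krt19, a small type I keratin, had 2 and 6 UMIs and was not counted. Cells with UMIs of at least 3 of 8 suprabasal genes (Sbsn, Krtdap, Dmkn, Lypd3, Calml3, Lgals7, Cldn4 and Ppl) made up 15.04% of the cells with placode genes and 49.3% of those without, and the part of this share in the levels of Krt1, Krt10 and Krt77 was not tested. Wildtype cells without placode genes that fell below this suprabasal rule had 53.3 CPM of Krt10.

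**Figure D1:**
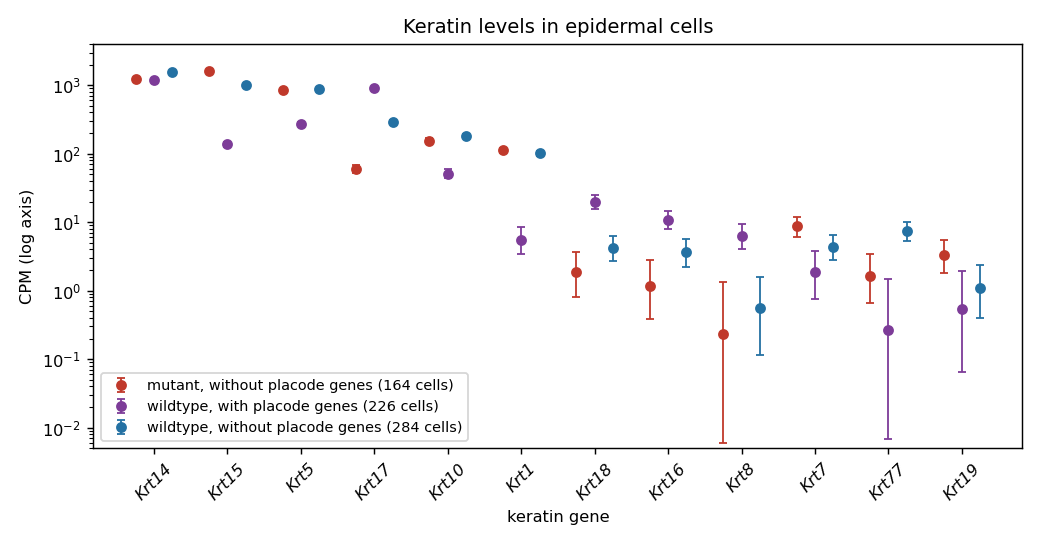
Level of each keratin with 20 or more epidermal UMIs (vertical axis, CPM on a log scale) in mutant cells without placode genes, wildtype cells with placode genes and wildtype cells without. Bars are exact Poisson 95% intervals; Krt17, Krt18, Krt16 and Krt8 are highest in wildtype cells with placode genes, while Krt15, at 1595 CPM, is highest in mutant cells.

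Levels followed the number of placode genes found in a wildtype cell. From 0 through 5 or more placode genes, Krt17 stood at 165.4, 312.4, 634.9, 888.2, 875.1 and 908.5 CPM. Krt15 stood at 1113, 948.5, 884.5, 250.5, 167.5 and 98.05 CPM over the same steps. Krt17 was thus already higher in cells with 1 or 2 placode genes than in those with none. Krt15 was lower in sum with 1 placode gene than with none, without overlap of the counting intervals, and its steepest step lay between 2 and 3. Krt5 stood at 774.1 CPM with 2 placode genes and 382.6 CPM with 3. Krt18 was at 1.14 CPM with none and 22.8 CPM with 5 or more. Median depth ran between 13677.5 and 17203 UMIs over these 6 groups of 40 to 142 cells, and the share of cells with suprabasal genes was 61.2% with no placode gene and 13.4% with 5 or more. In mutant cells Krt17 was at 54.3, 54.4 and 111.5 CPM with 0, 1 and 2 placode genes. In summed UMIs the 13 mutant cells with 2 had more Krt17 (82.5 to 147.5 CPM) than the 70 with 1 (44.7 to 65.7 CPM), as in the wildtype library at lower levels. These intervals cover counting error and not the spread between cells, so a difference between the 2 groups of cells was not tested.

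**Figure D2:**
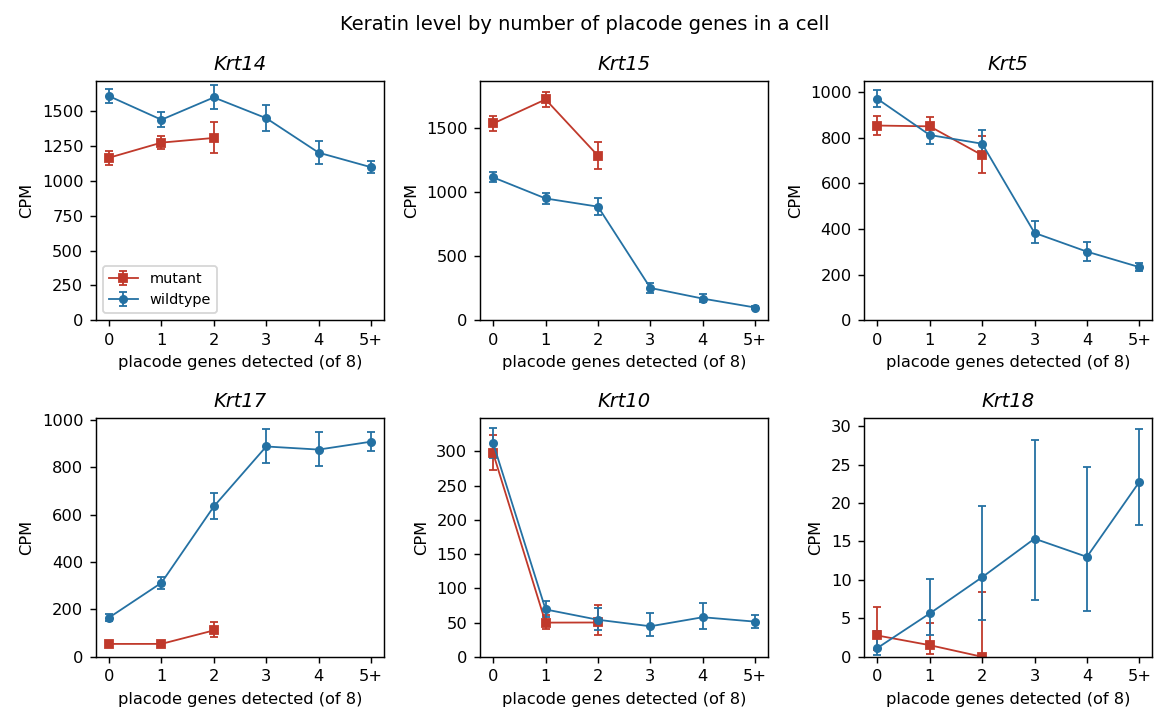
Level of 6 keratins (vertical axes, CPM) by the number of placode genes found in a cell (horizontal axes), for mutant cells (squares) and wildtype cells (circles), with exact Poisson 95% intervals. Mutant groups stop at 2 placode genes because only 2 mutant cells had 3 or more; wildtype Krt17 reaches 908.5 CPM and wildtype Krt15 98.05 CPM at 5 or more.

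In mutant epidermal cells without placode genes keratins took nearly the same share of UMIs as in their wildtype counterparts, with a different composition. Keratins took 0.401% of mutant UMIs (0.395 to 0.407%) and 0.405% of wildtype UMIs (0.400 to 0.411%), a log2 ratio of -0.01 (-0.04 to 0.01). Krt15 was higher and Krt17 lower. Of 11 measured keratins, 3 were at least 1.5-fold higher in the mutant library (Krt15, Krt19 and Krt7), 4 at least 1.5-fold lower (Krt17, Krt16, Krt77 and Krt18) and 4 between (Krt14, Krt5, Krt10 and Krt1), with a median log2 ratio of -0.24. In cells thinned to 10000 UMIs 1 was higher and 2 lower, and without the top 8% of doublet scores 1 was higher. Krt15 itself fell short of 1.5-fold in 3 alternatives, at a log2 ratio of 0.47 without the top doublet scores, 0.55 in the epidermis-like cluster only and 0.46 when cells with even 1 placode gene were left out. Among 11029 genes measured in these cells 6.4% were as much higher and 12.6% as much lower, with a median of -0.10. Over all epidermal cells, where the wildtype library also holds its placode cells, 4 of 12 were higher and 5 lower, with a median of 0.03, against 7.27% higher and 17.3% lower among 11746 genes.

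Krt15 was at 1595 CPM (1557 to 1633) in mutant cells and 1018 CPM (991.1 to 1045) in wildtype cells, a log2 ratio of 0.65 (0.60 to 0.70). The median cell had 1559 CPM in the mutant library and 868.6 CPM in the wildtype library, with quartiles of 944.2 and 2142 CPM among mutant cells and of 293.2 and 1551 CPM among wildtype cells. The distributions overlapped, with the wildtype cells reaching further down. At 5000 UMIs per cell Krt15 was found in 93.7% of mutant cells and 81.2% of wildtype cells. Krt15 was thereby the most abundant keratin in mutant cells, with 39.8% of keratin UMIs, while Krt14 was in wildtype cells, with 38.2%.

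Krt14 was at 1232 CPM in mutant cells and 1547 CPM in wildtype cells (log2 ratio -0.33, -0.38 to -0.28), and Krt5 at 838.6 and 882.8 CPM (-0.07, -0.14 to -0.01, and 0.02 with median-of-ratios scaling). Both lay within 1.5-fold. The ratio of type I to type II UMIs was 3.17 (3.06 to 3.28) in mutant cells and 3.06 (2.96 to 3.15) in wildtype cells. The balance between the types was thus nearly equal, and far from the 8.03 of wildtype placode cells.

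Krt17 was at 60.3 CPM (53.1 to 68.2) in mutant cells and 292.7 CPM (278.6 to 307.5) in wildtype cells, a log2 ratio of -2.28 (-2.48 to -2.09). It was found at 5000 UMIs per cell in 21.5% of mutant and 43.7% of wildtype cells. Part of the wildtype level came from cells with 1 or 2 placode genes, but in cells with none it was still 54.3 CPM in the mutant library and 165.4 CPM in the wildtype library. Krt16 had 5 and 20 UMIs (log2 ratio -1.63, -3.40 to -0.17), Krt18 8 and 23 (-1.15, -2.53 to 0.06), and Krt8 1 and 3, too few to count. The interval of Krt18 includes 0, and when cells with even 1 placode gene were left out its log2 ratio was 1.28.

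Krt7 was found in 34 mutant cells with 37 UMIs and in 20 wildtype cells with 24 (8.75 and 4.40 CPM, log2 ratio 0.99, 0.21 to 1.80). Krt19 had 14 and 6 UMIs (3.31 and 1.10 CPM, 1.59, 0.12 to 3.26). Both were spread over single UMIs: no cell had more than 2 of Krt7 or more than 4 of Krt19. The remaining members were nearly silent, with 15 keratins at 1 to 19 UMIs and 26 at none over all epidermal cells of both libraries.

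**Figure D3:**
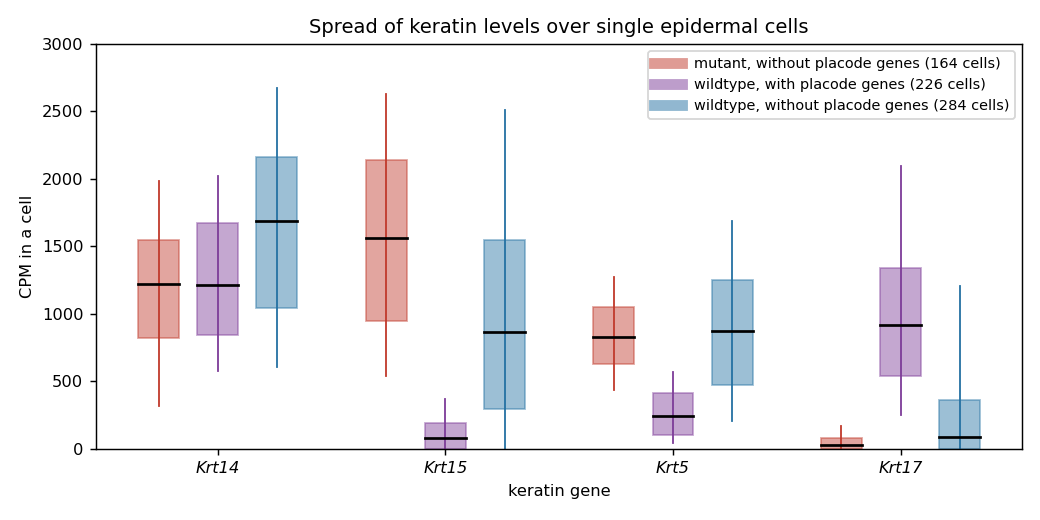
Level in single epidermal cells (vertical axis, CPM) of Krt14, Krt15, Krt5 and Krt17 in mutant cells without placode genes, wildtype cells with and wildtype cells without. Boxes span the quartiles with the median as a black line, and thin lines run from the 10th to the 90th percentile; the boxes of Krt15 overlap between mutant and wildtype cells without placode genes, with medians of 1559 and 868.6 CPM.

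Krt1 and Krt10 were close between genotypes in sum. Krt1 was at 111.9 CPM in mutant and 101.7 CPM in wildtype cells without placode genes (log2 ratio 0.14, -0.04 to 0.32), and Krt10 at 155.4 and 183.9 CPM (-0.24, -0.39 to -0.10). Both rest on few cells: the 5 cells with most held 65.8% of mutant and 55.3% of wildtype Krt1 UMIs, and 52.2% and 47.9% of Krt10 UMIs. Krt77 had 7 and 40 UMIs (-2.15, -3.55 to -0.97), with 15 of the wildtype UMIs in 1 cell.

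The library's suprabasal share differed as well, with 36 of 164 mutant cells (22.0%) and 140 of 284 wildtype cells (49.3%) carrying at least 3 of the 8 suprabasal genes. Within that subset, chosen after the data had been seen, Krt1 was at 471.4 CPM in mutant and 174.6 CPM in wildtype cells (log2 ratio 1.43, 1.25 to 1.62) and Krt10 at 530.7 and 286.5 CPM (0.89, 0.73 to 1.05). Over all cells without placode genes, where Krt1 and Krt10 were close in sum, several genes of the list were lower in the mutant library. Lgals7 had 51.3 CPM in mutant and 321.5 CPM in wildtype cells, and Dmkn 63.9 and 322.1 CPM. Sbsn had 27.9 and 67.6 CPM and Krtdap 321.3 and 484.6 CPM, while Lypd3, Calml3, Cldn4 and Ppl are not given here. A list whose genes differ between libraries does not pick like cells in both, so the higher Krt1 and Krt10 of the subset and the choice of its cells cannot be told apart. In cells with fewer than 3 suprabasal genes, Krt15 was at 1652 CPM in mutant and 884.6 CPM in wildtype cells (0.90, 0.83 to 0.97) and Krt17 at 61.5 and 396.1 CPM (-2.69, -2.91 to -2.47). Krt10 was at 52.5 and 53.3 CPM there (-0.02, -0.36 to 0.32), and its partner Krt1 had 44 and 21 UMIs (13.3 and 8.75 CPM, 0.60, -0.18 to 1.43). The Krt15 and Krt17 differences were thus larger, and Krt10 nearly equal, where suprabasal genes were scarce, while the interval of Krt1 included 0.

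Genes that hold keratin filaments in place, such as desmosomal and hemidesmosomal plakins and integrins, were followed as a list of 18 with vimentin, the filament of mesenchyme. The list includes Dsp, also 1 of the 6 genes that chose epidermal cells, and Ppl, also 1 of the 8 suprabasal genes. Only members with UMIs on both sides of a comparison were counted, a limit not set for keratins or all genes. In mutant over wildtype cells without placode genes, 1 of 17 measured members was at least 1.5-fold higher and 5 lower, with a median log2 ratio of -0.29. Over all genes of this comparison 6.4% were as much higher and 12.6% as much lower, with a median of -0.10. Vim had 121.4 CPM in mutant and 398.8 CPM in wildtype cells (log2 ratio -1.72, -1.86 to -1.58), and Itga6, a hemidesmosomal integrin, 27.7 and 65.2 CPM (-1.24, -1.55 to -0.93). Alternatives without high doublet scores or cells outside the epidermis-like cluster were run for keratins only. The part of mixed barcodes in the Vim levels was thus not tested. Evpl (envoplakin) had 22 and 57 UMIs (-1.005, -1.79 to -0.27) and Dsc3 (a desmosomal cadherin) 51 and 102 (-0.63, -1.15 to -0.13). Eppk1 (epiplakin) was higher, with 55 and 46 UMIs (0.63, 0.04 to 1.22), and Dst (dystonin, a hemidesmosomal linker) had 172.2 and 118.7 CPM (0.54, 0.38 to 0.69). In wildtype cells with over without placode genes, 11 of 16 members were lower and 0 higher, with a median of -1.03, against 10.6% lower and 13.1% higher over all genes and a median of 0.03. There Dst had 24.7 CPM in cells with placode genes and 118.7 CPM in cells without, and Dsc3 had 4 and 102 UMIs.

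Cells on the authors' dermal lists, 5028 in the mutant library and 5300 in the wildtype library, held little keratin RNA. Single genes spread widely in how they compared with their epidermal level. Krt15 stood at 0.0148% of that level in the mutant library and 0.0942% in the wildtype library. Krt7 stood at 1.11% and 0.946%, Krt1 at 1.17% and 2.95%, Krt18 at 14.6% and 2.42%, and Krt10 at 21.5% and 27.6%. Keratins took 38.1 CPM in mutant and 43.7 CPM in wildtype dermal list cells, a log2 ratio of -0.20 (-0.27 to -0.12). Of 10 measured keratins 2 were at least 1.5-fold higher in the mutant library, 4 lower and 4 between, and among 15609 genes measured there 10.9% were as much higher and 5.64% as much lower. The genes of the 6-gene epidermal list together had 1.91 CPM in mutant and 2.96 CPM in wildtype dermal list cells, against 1320 and 1397 CPM in epidermal cells.

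With all dermal list cells included, Krt14, Krt5 and Krt15 were present at traces close to 1 proportion of their epidermal level. The wildtype proportions include 5 cells with 98 of the 230 UMIs of Krt14, Krt5, Krt15 and Krt17. Without those cells the 4 genes together fell from 3.66 to 2.10 CPM, and whether single genes kept a common proportion was not tested. Krt14 stood in dermal list cells at 0.0170% of its epidermal level in the mutant library and 0.110% in the wildtype library, Krt5 at 0.0177% and 0.126%, and Krt15 at 0.0148% and 0.0942%. Krt17 had 2 and 44 UMIs, or 0.0404% and 0.130%. Free RNA from a single source keeps its genes in a common proportion; whether these UMIs were free RNA was not tested. The log2 ratios between libraries were -2.88 (-3.72 to -2.13) for Krt14, -2.43 (-3.47 to -1.50) for Krt5, -1.41 (-2.28 to -0.58) for Krt15 and -4.83 (-7.92 to -2.89) for Krt17. The same 4 genes took 103.5 CPM of the whole mutant library and 270.3 CPM of the whole wildtype library.

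These basal traces were mostly single UMIs. The 4 genes together had 50 UMIs in 48 mutant cells, with at most 2 in a cell, and 230 UMIs in 128 wildtype cells, of which 5 held 98 UMIs and 1 alone 36. Without these 5 cells, left out after the data had been seen, the wildtype library kept 132 UMIs and the log2 ratio of Krt14 was -1.57 in place of -2.88. At 5000 UMIs per cell Krt14 was found in 0.101% of mutant and 0.428% of wildtype dermal list cells.

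**Figure D4:**
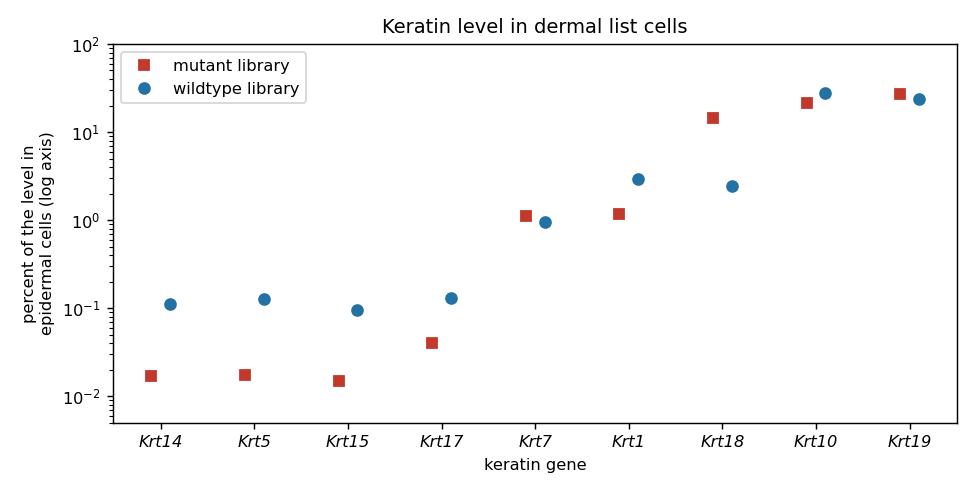
Level of 9 keratins in dermal list cells as a percent of their level in epidermal cells of the same library (vertical axis, log scale), for the mutant (squares) and wildtype (circles) libraries. Krt14, Krt5 and Krt15 lie near 0.0170% in the mutant library and near 0.110% in the wildtype library, while Krt10 lies at 21.5% and 27.6%.

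Krt10 did not follow that proportion. It was at 33.0 CPM (31.8 to 34.3) in mutant and 35.8 CPM (34.4 to 37.3) in wildtype dermal list cells, which is 21.5% and 27.6% of its epidermal level and a log2 ratio of -0.12 (-0.20 to -0.04). It was found in 39.3% of mutant and 33.6% of wildtype dermal list cells, and at 5000 UMIs per cell in 15.7% and 17.5%. Epidermal cells with neither placode nor suprabasal genes by the rules above had 52.5 and 53.3 CPM. Muscle cells had 35.6 and 38.2 CPM, mural cells 27.3 and 29.7 CPM, Schwann or neural crest cells 47.7 and 53.8 CPM, macrophages 10.001 and 11.7 CPM and mast cells 7.74 and 8.11 CPM. In erythroid barcodes Krt10 was found in 4 of 1393 mutant and 2 of 638 wildtype cells. Over dermal list cells and these 5 named types the order of the levels was the same in both libraries, while Krt14 did not exceed 3.03 CPM in any of them. With melanoblasts added the order was not the same. Their 24 mutant and 8 wildtype UMIs were 18.4% and 13.2% of the epidermal Krt10 level, against 17.8% and 22.9% for mural cells. Endothelium had 28 and 12 UMIs, or 8.60% and 10.1%. Muscle overlapped with dermal list cells in its intervals in both libraries, and so did macrophages with mast cells. Mural and dermal list cells overlapped in the wildtype library. Krt10 overlaps Gm11940 on the opposite strand, and whether counting used strand is not given in the sources used here.

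Krt1, Krt222, Krt19, Krt80 and Krt18 were the other members measured in dermal list cells. Krt1 had 1.29 CPM in mutant and 1.84 CPM in wildtype cells (1.17% and 2.95% of the epidermal level, log2 ratio -0.51, -0.91 to -0.12). Krt222, a gene at the end of the type I cluster, had 83 and 75 UMIs (-0.22, -0.69 to 0.25) but only 1 and 3 UMIs in epidermal cells. Krt80, an epithelial type II keratin, had 31 and 13 UMIs (0.89, -0.09 to 1.94) in dermal list cells and 0 and 1 UMI in epidermal cells. At these epidermal counts the intervals of both genes overlapped between dermal list and epidermal cells in each library. Krt18 had 22 and 16 UMIs (0.09, -0.90 to 1.12).

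On the dermal lists Krt19 had 72 UMIs from 39 cells of the mutant library and 13 UMIs from 11 cells of the wildtype library (0.89 and 0.21 CPM, log2 ratio 2.10, 1.24 to 3.08). In the mutant library most came from cluster 4, an unnamed dermal cluster led by Mfap5, Ccn3 and Clec3b, where 28 of 996 mutant cells held 55 UMIs and 3 of 661 wildtype cells held 3 (3.44 and 0.43 CPM). Cluster 12, led by the cell cycle gene Top2a, held 15 and 5 UMIs (7.36 and 2.79 CPM), with intervals that overlapped those of cluster 4. In mutant dermal list cells Krt19 thus had more UMIs than the 17 of Krt14, whereas mutant epidermal cells had 14 UMIs of Krt19 and 5294 of Krt14.

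Several keratins were found in other cell types. In muscle, 44 mutant cells held 106 UMIs of Krt8 and 60 wildtype cells held 111 (8.84 and 12.1 CPM), next to 6.38 CPM in wildtype epidermal cells with placode genes. Its partner Krt18 had 8 and 9 UMIs in muscle. Krt24, a type I keratin, had 10 and 38 UMIs in muscle (0.83 and 4.14 CPM). In mast cells Krt80 had 98 and 30 UMIs (11.3 and 7.85 CPM), Krt4, known from mucosal epithelia, 68 and 30 (7.85 CPM in each library), and Krt18 55 and 14 (6.35 and 3.66 CPM). These were all 68 Krt4 UMIs of the mutant library and 30 of the 31 of the wildtype library. Krt79, known from the hair canal, had 17 and 12 UMIs in mural cells (2.71 and 2.43 CPM). Each of these keratins was found in the same cell type in both libraries.

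Krt15 was found in erythroid barcodes without a like amount of Krt14. In erythroid barcodes 188 of 1393 mutant cells held 320 UMIs of Krt15 and 51 of 638 wildtype cells held 78 (19.4 and 15.5 CPM), where Krt14 had 1 and 8 UMIs. In epidermal cells, by contrast, Krt15 had 6816 UMIs beside 5294 of Krt14 in the mutant library and 6071 beside 12877 in the wildtype library. In mutant macrophages the 25 cells with a Krt15 UMI had a median of 352445 CPM of haemoglobin genes and the 376 cells without had 282.7 CPM. In mutant melanoblasts the 6 cells with Krt15 had a median of 484705 CPM of haemoglobin and the 39 without had 270.7 CPM. In the wildtype library the 5 macrophages with Krt15 had 66820 CPM and the 324 without 169.4 CPM, and the 2 melanoblasts with Krt15 had 375062 CPM and the 32 without 234.9 CPM. Haemoglobin RNA thus moved with Krt15 in both types, and its part in these UMIs was not tested. Other basal keratins moved with it in wildtype macrophages: the 5 cells with Krt15 held 8 UMIs of Krt14 and 5 of Krt5, and the 324 without held 3 and 1. In the 25 mutant macrophages with Krt15 neither gene had a UMI.

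**Figure D5:**
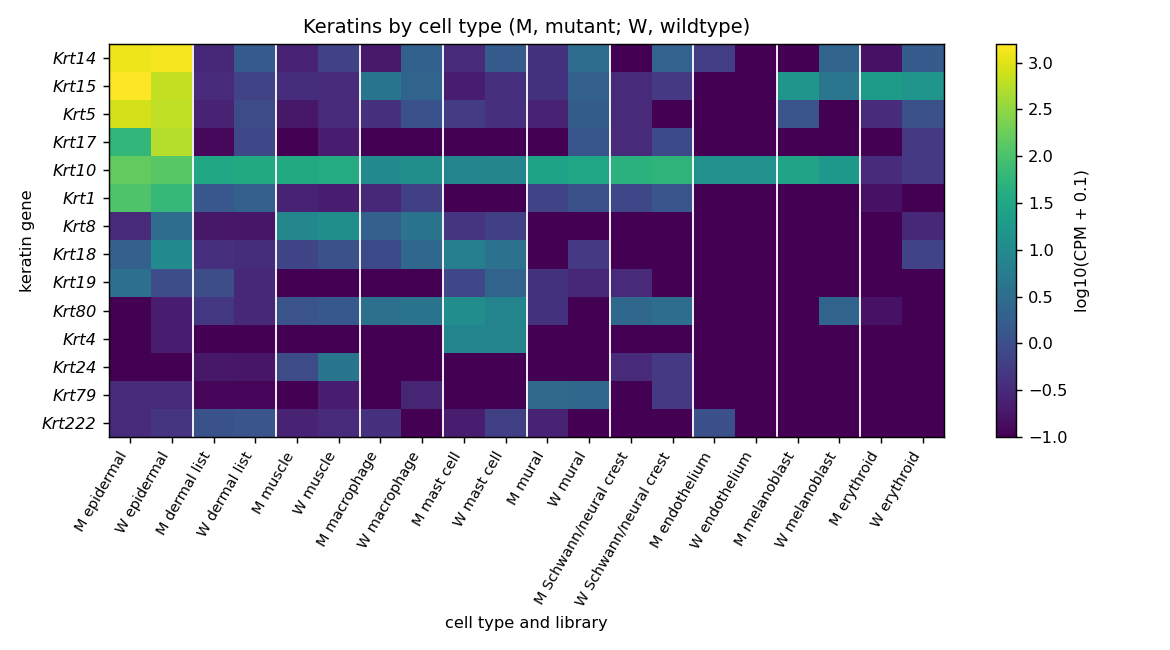
Level of 14 keratins in 10 cell types, as log10 of CPM plus 0.1 (colour), with the mutant column left of the wildtype column for each type. Krt10 is seen in all types but erythroid barcodes at intermediate levels, Krt8 stands out in muscle, Krt80, Krt4 and Krt18 in mast cells, and Krt15 in erythroid barcodes.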

How the data were processed

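Per the labels' protocols, flank skin of E14.5 embryos was dissociated and profiled with the 10x 3' kit version 3.1. The values deposited are raw UMI counts of each gene in each barcode. Per the file headers, the authors made them with cellranger version 6.1.2. The genome build was mm10 and Seurat is named too, per the submitters' processing notes. The deposited barcode, gene and dermal list files hold names, not measurements. The libraries held 159841679 mutant and 112593376 wildtype UMIs in 10449 and 9065 barcodes.

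UMIs were summed over the cells of each set and divided by the set's total (CPM), with exact Poisson 95% intervals for levels, exact conditional binomial intervals for log2 ratios (mutant over wildtype, or with over without placode genes) and exact Clopper-Pearson intervals for shares. These cover counting error only. Genes with 20 or more UMIs over both sets counted as measured, and 1.5-fold as higher or lower. All keratins with 20 or more UMIs in epidermal or dermal list cells are named. Shares of cells were also computed with each cell thinned to 5000 UMIs. Cells were named by clustering without keratins (scanpy 1.11.5, 2000 variable genes, 30 components, 15 neighbours, Leiden resolution 0.5, 20 clusters), a name needing 3 markers among the 50 top genes. Scrublet, through scanpy, called 1 mutant and 244 wildtype barcodes as doublets and did not work in the mutant library, so the top 8% of scores were left out as an alternative. Of the epidermal cells, 14 mutant and 35 wildtype cells lay outside the epidermis-like cluster. Gene positions came from GENCODE M21 and promoters from RefSeq. The members and lists were chosen with earlier results of these data known. Computations used Python 3.11.15, numpy 2.4.6, scipy 1.17.1 and pandas 2.3.3. The intervals were run on simulated Poisson counts without spread between cells, so their coverage under such spread was not tested. Genes could share reads with close paralogs. 1 gene of the periderm list is not reported here.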

Additional observations from a re-analysis of the deposited data

Results flagged for a closer look

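Krt15 differed in direction between cell classes. Its log2 ratio of mutant over wildtype was 0.65 in epidermal cells without placode genes and -1.41 in dermal list cells, with intervals on opposite sides of 0. The dermal value rests on 19 mutant and 39 wildtype UMIs, and the difference between the classes was not tested. Krt14, Krt5, Krt15 and Krt17 together were also lower in mutant dermal list cells, at 0.616 CPM against 3.66 CPM. They took 103.5 CPM of the whole mutant library and 270.3 CPM of the whole wildtype library. Of their 230 wildtype dermal UMIs, 98 lay in 5 cells. Whether these UMIs were free RNA was not tested.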

How the results depend on the processing

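The summed keratin level of cells with over without placode genes kept its direction in every alternative. It was -0.70 without the top 8% of doublet scores, -0.69 in epidermis-like clusters only, and -0.51 with 2 and -0.51 with 1 of 8 placode genes as the rule. The sum in mutant over wildtype cells without placode genes stayed near 0, at 0.080 with median-of-ratios scaling, -0.17 without the top doublet scores, -0.095 as a mean over cells, -0.063 in cells thinned to 10000 UMIs, -0.11 in epidermis-like clusters only and -0.071 with 1 placode gene as the rule. Median-of-ratios scaling puts the general shift at -0.11 in all epidermal cells and -0.094 in those without placode genes. Taking it out turned Krt5 to 0.020 in cells without placode genes.

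Counts of keratins moved more. In cells without placode genes the 3 higher became 1 without the top doublet scores, 1 in thinned cells, 1 at 2-fold and 1 with 1 placode gene as the rule. The 4 lower became 2 in thinned cells, 1 with a minimum of 50 UMIs, and 2 with either 2 or 1 placode genes as the rule. With no UMI minimum there were 7 higher and 8 lower, and 12 were higher over all epidermal cells, where a minimum of 50 UMIs left 3 lower. With over without placode genes, no minimum gave 11 higher and 11 lower. The cause was not tested, except that minimums and thinning change how many genes enter. For single keratins 369 of 431 values stayed within the counting interval of the reported value and 61 moved outside it. The other 1, Krt5 above, reversed, a label given only where the reported interval excluded 0. Some keratins whose reported interval included 0 also changed sign. In cells without placode genes Krt18 ranged from -2.44 to 1.28, Krt8 from -2.49 to 1.13 and Krt1 from -0.057 to 0.51. In dermal list cells Krt222 ranged from -0.42 to 0.13 and Krt18 from -0.32 to 0.46.

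Krt17 stayed between -2.75 and -1.61 and Krt15 between 0.46 and 0.74 in mutant over wildtype cells without placode genes. No paired analysis was possible because each genotype has 1 library. Rare keratins are limited by depth, since 1 UMI was worth 0.237 CPM in mutant and 0.183 CPM in wildtype cells without placode genes.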
